A study of Mus musculus with 12 samples.

Results

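The 58 genes described here are the measured genes of mouse whose symbols belong to the interferon response or to MHC class I antigen presentation, out of 12643 genes measured in all. They were chosen by symbol alone, with a rule that takes in the Ifit and Ifi genes, Ifih1, Ifnar, Irf, Oas, Stat2 and Gbp genes, the H2-D, H2-K, H2-Q, H2-T and H2-M genes, and Isg15, Isg20, Usp18, Bst2, Rsad2, Ddx58, Dhx58, Tap1, Tap2, Tapbp and B2m. By role they were 2 classical and 16 non-classical class I heavy chains, 4 genes of class I assembly, 2 receptor chains, 3 RNA sensors, 8 transcription factors and 17 effectors. The other 6 matched by name only. They were H2-DMa (a chaperone of class II peptide loading), H2-K2 (a non-coding accession), H2-Ke6 (a steroid dehydrogenase) and the Irf2-binding proteins Irf2bp1, Irf2bp2 and Irf2bpl. Of 125 RefSeq symbols that match, 67, Isg15 among them, were not analysed here. No transcript in the files summed to under 141 counts across libraries, so the 58 are members above a minimum level and not the whole family. H2-Q7 and H2-Q9 held identical counts in all 12 libraries, so they are 1 measurement under both symbols. For each comparison the total called over all members is also given without H2-Q9 where it differs. All other counts, shares and medians hold both symbols.

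The libraries came from MIN6 cells, a mouse insulinoma line used as a model of the pancreatic beta cell, at passage 29 and kept in DMEM with high glucose. Cells received an siRNA by AMAXA nucleofection, either NT, the control, or one against Pdx1, a homeodomain factor of beta cells, and were collected 72 h later. RNA was taken by TRAP, which pulls down tagged ribosomes with the mRNAs on them, so each siRNA gave IP RNA, bound to ribosomes, and total RNA. That makes 4 groups of 3 libraries (NT total, Pdx1 siRNA total, NT IP and Pdx1 siRNA IP), all of 1 line and all nucleofected, with no untreated cells and no cells given interferon. The sources used here do not give the ribosomal protein that carried the tag, the library kit or the strand. Nor do the labels say that replicates were separate cultures. The spread behind every p-value is therefore that of the libraries, and it may be technical.

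Class I molecules present peptides from inside the cell to CD8 T cells. A heavy chain folds with beta-2-microglobulin (B2m) and is loaded with peptides that the transporter of Tap1 and Tap2 brings into the endoplasmic reticulum, where tapasin (Tapbp) holds the empty heavy chain at the transporter. Type I interferon binds the receptor of Ifnar1 and Ifnar2, and a complex that holds Stat2 and Irf9 then switches on antiviral effectors and class I genes. In beta cells the pathway is studied because class I is found at raised levels on islets in type 1 diabetes.

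Promoters of interferon-responsive genes are known to hold short sequences that interferon-activated factors read. A few are shown here because class I genes with nearly the same window moved in opposite directions after Pdx1 siRNA. RefSeq promoter windows (GRCm38.p6) were matched for 45 members, and the 250 bases before the start were searched on both strands. The core of the interferon-stimulated response element, searched as GAAA followed by 2 bases of any kind and GAAA again, was in 13 of 45 members and in 3.46% of 27025 genes. Effectors carried it most often, at 8 of 13. GAANNGAAA, a shorter form looked for after the class I windows had been seen, was in 12 of 45 members and in 7.3% of genes, and both classical class I genes had it. Gbp7, Irf2 and Stat2 held both this form and the longer one. A different element, the gamma-activated site, was searched as TTCNNNGAA and was in 10 of 45 members and in 8.13% of genes. Its windows are not shown. In the 50 bases around the match the capitals mark GAANNGAAA, here on the opposite strand, and lines run 5′ to 3′ on the strand of the gene.
H2-K1 (chr17:34000409-34000458, minus strand): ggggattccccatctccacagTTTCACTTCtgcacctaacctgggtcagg
H2-D1 (chr17:35262923-35262972, plus strand): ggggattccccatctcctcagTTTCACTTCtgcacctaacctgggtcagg
H2-Q4 (chr17:35379443-35379492, plus strand): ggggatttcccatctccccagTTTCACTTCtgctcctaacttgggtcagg
H2-Q6 (chr17:35424677-35424726, plus strand): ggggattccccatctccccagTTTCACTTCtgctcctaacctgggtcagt
H2-Q7 (chr17:35439021-35439070, plus strand): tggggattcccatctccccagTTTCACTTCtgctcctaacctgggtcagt
H2-M3 (chr17:37270112-37270161, plus strand): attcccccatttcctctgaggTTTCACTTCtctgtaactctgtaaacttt
The H2-K1 window was identical to that of H2-D1 at 49 of 50 bases, to that of H2-Q6 at 47, of H2-Q4 at 46 and of H2-Q7 at 43. The H2-M3 window matched it at 17 of 50 bases but holds the same TTTCACTTC. In the next windows the capitals mark that longer element, on either strand, in a class I assembly gene and 3 effectors.
B2m (chr2:122147528-122147577, plus strand): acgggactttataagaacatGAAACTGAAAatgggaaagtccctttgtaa
Bst2 (chr8:71537570-71537619, minus strand): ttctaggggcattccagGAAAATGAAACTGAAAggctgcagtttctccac
Rsad2 (chr12:26456543-26456592, minus strand): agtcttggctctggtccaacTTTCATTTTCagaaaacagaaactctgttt
Ifit1 (chr19:34640774-34640823, plus strand): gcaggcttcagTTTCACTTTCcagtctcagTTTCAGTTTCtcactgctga
Bst2 and Ifit1 hold 2 matches each, which overlap in Bst2. A match describes the letters in the window and is not a measured binding site.

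Libraries held 29430690 to 45806807 counts over the measured genes. Levels are CPM, a gene's counts relative to a library size scaled by edgeR's TMM factors, given as mean ± SD of 3 libraries. Pdx1 was at 118, 123 and 110 CPM in NT total RNA and at 47.7, 57.4 and 47.9 after Pdx1 siRNA, so the libraries labelled Pdx1 siRNA were the lower ones. All 10 beta cell markers were measured, with a summed level of 117900 to 128200 CPM in NT total RNA. Of 15 myeloid markers 1 was measured, and of 8 lymphocyte, 6 endothelial and 7 fibroblast markers 0; the others were not analysed here. That myeloid marker was Cd74, the invariant chain of class II. It lay at 1.81 to 2.39 CPM in total RNA with NT siRNA and at 6.17 to 7.56 CPM with Pdx1 siRNA, and in IP RNA at 3.87 to 4.54 and at 12.1 to 18.2 CPM. Its part in the class I results was not tested. In bulk RNA more cells of a type and more RNA per cell cannot be told apart. Replicate 3 of NT IP lay with the Pdx1 siRNA IP libraries, and apart from NT IP replicates 1 and 2, at some members: H2-M10.3 held 40, 31 and 2 counts in the NT IP libraries, where Pdx1 siRNA gave 8, 2 and 13. No label gives a batch that matches this split of the IP libraries, and named results whose call ends with this split as a term are given with and without it.

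In NT total RNA some genes of the class I system stood highest among the members, on a scale of CPM per kb of transcript that allows genes to be compared. The classical heavy chains H2-K1 at 939 ± 59.1 and H2-D1 at 626 ± 30.7 CPM per kb stood first, their partner B2m followed at 332 ± 31.7, and tapasin (Tapbp) was at 139 ± 7.62. Ifi30, a lysosomal thiol reductase, lay between them at 162 ± 5.19. The highest non-classical heavy chain was H2-M10.1 at 100.3 ± 1.59 CPM per kb, a family best known from vomeronasal neurons. The transporter genes were lower, with 8.26 ± 0.703 for Tap2 and 7.07 ± 0.474 for Tap1, next to Irf1 at 8.74 ± 0.178, and the SD ranges of Tap2 and Irf1 overlapped. The receptor chains differed from each other on this scale, with Ifnar2 at 57.4 ± 2.27 and Ifnar1 at 15.9 ± 0.382 CPM per kb. In CPM they were alike, at 63.0 ± 2.49 and 62.2 ± 1.49, so the difference rests on the transcript lengths used, 1099 and 3909 bases. Of that Ifnar2 transcript 28.7% shares exons with the gene model Gm21970. The sensors and several antiviral effectors were at the low end: Ddx58 was at 0.791 ± 0.135, Ifit1 at 0.196 ± 0.0226, Ifih1 at 0.117 ± 0.0203 and Gbp7, the lowest of 57 members with a length, at 0.105 ± 0.0131. Some non-classical heavy chains were low too, such as H2-M10.4 at 0.697 ± 0.200 and H2-M10.5 at 0.412 ± 0.0627. Not every effector was low, as Ifi27 at 65.1 ± 2.48 stood above the transporter genes.

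**Figure D1:**
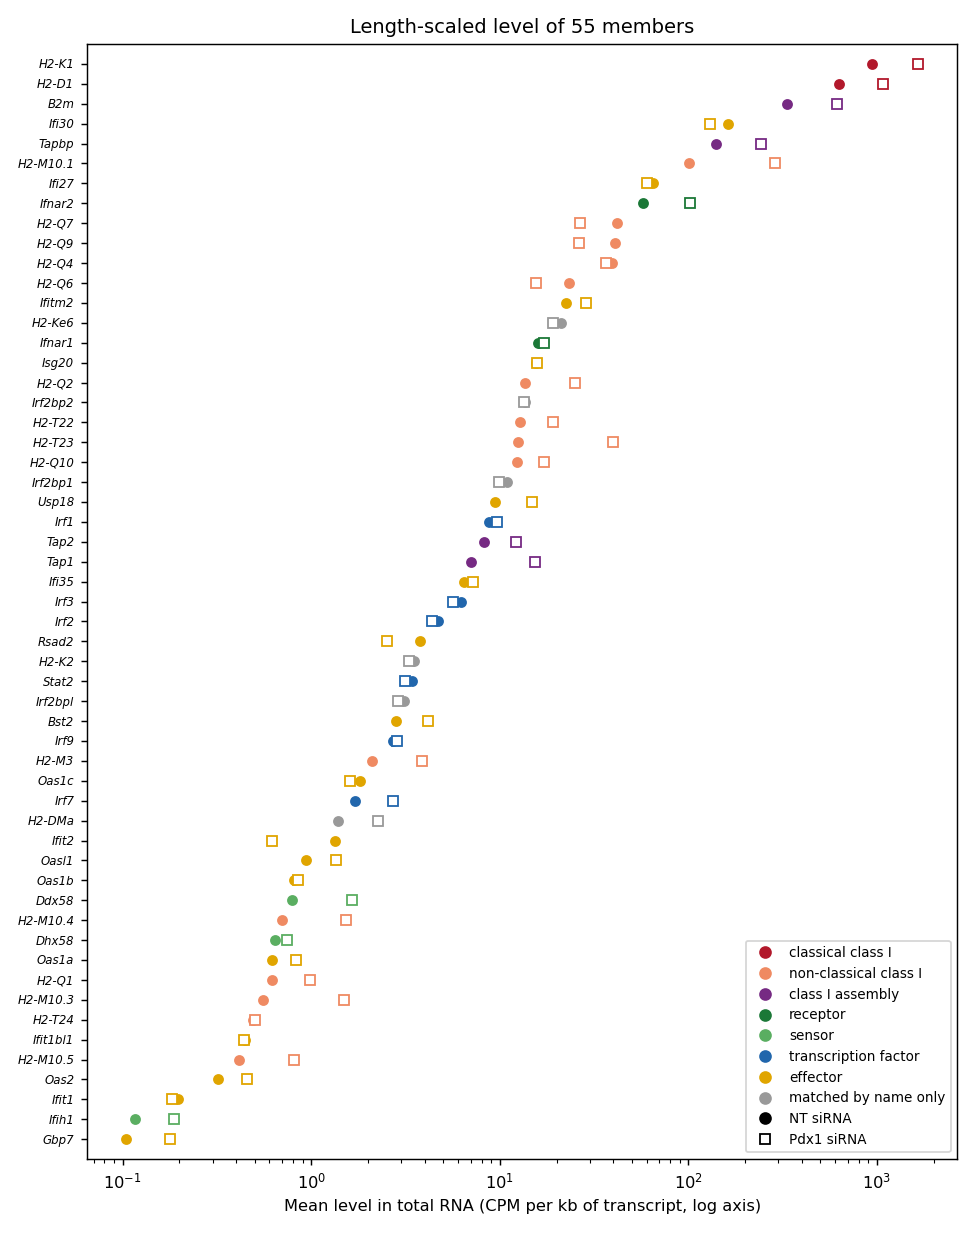
Mean level of 55 members in total RNA, in CPM per kb of transcript on a log axis, with filled circles for NT siRNA, open squares for Pdx1 siRNA and colours for the role. H2-K1, H2-D1 and B2m stand highest at 939, 626 and 332 CPM per kb with NT siRNA, and the squares of H2-T23 and H2-M10.1 lie far to the right of their circles.

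The first comparison asks how depletion of Pdx1 changed these genes in total RNA. Most class I heavy chains and all 4 assembly genes rose: of these 22 genes 16 were higher, 4 were lower and 2 did not pass after Pdx1 siRNA, with a median log2 fold change of 0.79. Receptors, sensors and transcription factors rose in 5 of 13 cases and none was lower, and the effectors split into 6 higher, 3 lower and 8 that did not pass. Over the 58 members, 28 were higher and 7 lower by edgeR's quasi-likelihood test at an adjusted p under 0.05 (6 lower without H2-Q9). Of all 12643 genes, 23.8% were higher and 29.2% lower, and 53.0% changed in either direction. The members' median log2 fold change was 0.28, against -0.04 over all genes. The share of members that were higher, 48.3%, was above the background, and the share that were lower, 12.1%, was below it. The groups' libraries did not overlap for 30 members on the higher side and 11 on the lower, against 26.1% and 32.6% of all genes.

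Both classical heavy chains rose. Positions are given in GRCm38.p6. H2-K1 (chr17:33996012-34000619) held 1502, 1624 and 1435 CPM in NT total RNA and 2226, 2709 and 3068 CPM after Pdx1 siRNA, a rise of 1.75-fold (log2 0.81 ± 0.13, SE; adjusted p = 8.9e-05). H2-D1 (chr17:35263094-35267497) went from 1327, 1375 and 1247 CPM to 1940.0, 2293 and 2554 CPM (log2 0.78 ± 0.11, adjusted p = 4.1e-05). Each of the 3 Pdx1 siRNA libraries was above every NT library for both genes, and the Pdx1 siRNA libraries were the more widely spread.

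All 4 assembly genes rose as well. B2m (chr2:122147687-122153082), the light chain that every class I molecule shares, was at 307, 255 and 294 CPM with NT siRNA and 558, 458 and 575 CPM with Pdx1 siRNA (log2 0.90 ± 0.11, adjusted p = 8.0e-06). Tap1 (chr17:34187556-34197225) rose 2.18-fold, from 18.2, 19.8 and 17.4 CPM to 32.4, 41.2 and 46.9 CPM (log2 1.12 ± 0.13, adjusted p = 4.9e-06). Its partner Tap2 (chr17:34204479-34216321) rose by less, from 28.8, 30.6 and 25.8 to 33.8, 42.4 and 49.3 CPM (log2 0.56 ± 0.13, adjusted p = 0.00164). Tapbp (chr17:33919478-33929290), the bridge between transporter and heavy chain, was at 398, 428 and 385 CPM in NT libraries and 602, 701 and 817 CPM in Pdx1 siRNA libraries (log2 0.81 ± 0.12, adjusted p = 3.4e-05). The groups did not overlap for any of the 4. Replicate 1 was the lowest Pdx1 siRNA library for Tap1, Tap2 and Tapbp, as it was for H2-K1 and H2-D1, whereas for B2m replicate 2 was the lowest.

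**Figure D2:**
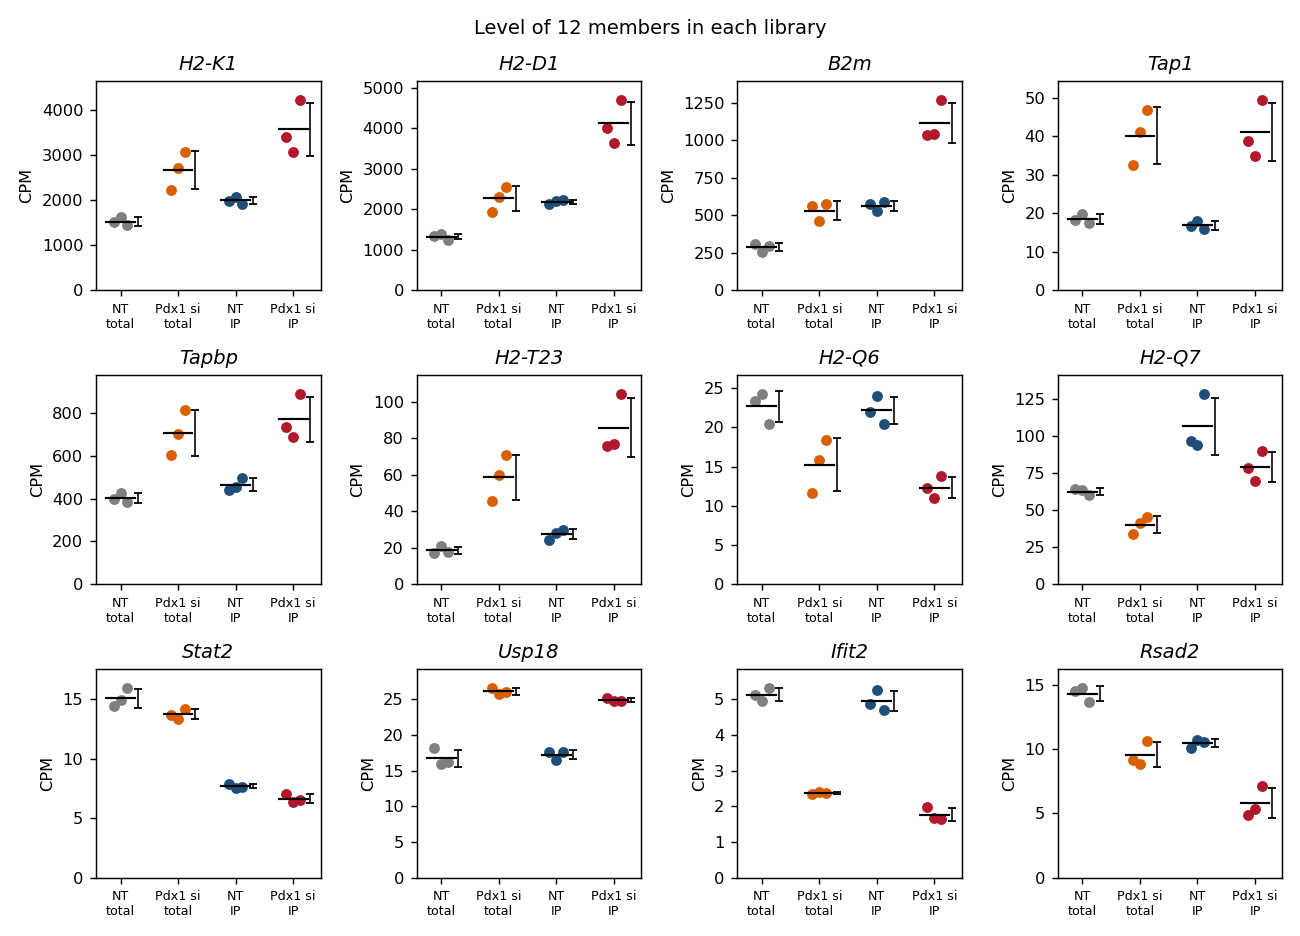
CPM of 12 members in each of the 12 libraries, with 1 panel per gene, 1 point per library, a line at the mean of 3 libraries and a bar of 1 SD beside it. H2-K1, H2-D1, B2m, Tap1, Tapbp and H2-T23 were higher with Pdx1 siRNA in both RNA fractions, H2-Q6, H2-Q7, Ifit2 and Rsad2 were lower, and Stat2 differed mainly between the fractions.

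Among 16 non-classical heavy chains 10 rose and 4 fell in total RNA, where 23.8% of all genes were higher and 29.2% lower. The steepest rise of any member belonged to H2-T23 (chr17:36029977-36032701), which encodes Qa-1, the ligand of CD94/NKG2 receptors on natural killer cells: it went from 16.99, 20.6 and 17.6 CPM to 45.8, 59.6 and 70.6 CPM, 3.18-fold (log2 1.67 ± 0.15, adjusted p = 3.0e-07). Of its transcript, 72.6% matched other annotated class I transcripts at 95% identity or more, so reads may be shared with them. H2-M10.1 (chr17:36322860-36326150), with 0.0% matched elsewhere, rose from 139.8, 142 and 138 CPM to 386, 380.0 and 431 CPM (log2 1.51 ± 0.09, adjusted p = 2.0e-09). Both groups were tight and far apart for H2-M10.1, while the Pdx1 siRNA libraries of H2-T23 spread widely.

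Smaller rises were seen in other heavy chains of the Q, T and M regions. H2-M3 (chr17:37270234-37274485), which presents N-formylated peptides, went from 2.62, 3.18 and 3.202 CPM to 5.37, 4.92 and 6.29 CPM (log2 0.87 ± 0.14, adjusted p = 9.2e-05). H2-Q2 (chr17:35342307-35346764) rose from 16.4, 17.9 and 17.3 CPM to 28.5, 32.5 and 33.4 CPM (log2 0.87 ± 0.09, adjusted p = 6.4e-07). H2-T22 (chr17:36037128-36042742), a ligand of gamma-delta T cell receptors with 86.2% of its transcript matched elsewhere, mainly in H2-T10, moved from 23.7, 19.2 and 25.03 to 36.8, 31.5 and 32.7 CPM (log2 0.57 ± 0.11, adjusted p = 0.000572). The groups stayed apart for each of these genes. The weaker H2-Q1 was at 1.24, 1.22 and 1.28 CPM with NT siRNA and 1.81, 1.87 and 2.32 CPM with Pdx1 siRNA (log2 0.68 ± 0.22, adjusted p = 0.0165), and that call was lost without Pdx1 total replicate 3 (adjusted p = 0.0772). H2-M10.3 held 33, 37 and 53 counts in the NT libraries and 91, 86 and 86 in the Pdx1 siRNA libraries, or 0.838, 0.7802 and 1.04 against 2.79, 1.98 and 2.37 CPM (log2 1.40 ± 0.39, adjusted p = 0.00649), and DESeq2 gave an adjusted p of 0.115. The Pdx1 siRNA libraries of both genes lay above the NT libraries, at levels of a few CPM or less. H2-Q10, H2-M10.4 and H2-M10.5 also rose, with log2 changes of 0.48, 1.15 and 0.95, and H2-T24 and H2-Q4 did not pass, at 0.06 and -0.11. Of the H2-Q10 transcript 20.6% matched H2-D1, so reads may be shared with that far more abundant gene.

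A block of neighbouring Q genes went the other way. H2-Q6 (chr17:35424850-35430055) fell from 23.3, 24.3 and 20.4 CPM to 11.6, 15.8 and 18.3 CPM, 1.48-fold lower (log2 -0.57 ± 0.13, adjusted p = 0.00187). H2-Q7 (chr17:35439140-35443773), which encodes the Qa-2 antigen, and H2-Q9 with the same counts fell from 63.9, 63.3 and 59.98 CPM to 33.9, 41.3 and 44.9 CPM (log2 -0.64 ± 0.13, adjusted p = 0.000587). H2-Q8 was at 9.496, 9.24 and 8.04 CPM in NT libraries and 4.79, 5.38 and 5.13 CPM in Pdx1 siRNA libraries (log2 -0.80 ± 0.12, adjusted p = 3.8e-05). No Pdx1 siRNA library reached the NT range for any of them. Of the H2-Q6 transcript 28.5% matched H2-Q7. H2-Q8 had no transcript in the copy search, which also found 0.0% matched elsewhere for H2-Q7 and H2-Q9 despite their identical counts. Reads may be shared within this block, so its falls may not be separate measurements. Set beside the sequences above, H2-K1 and H2-D1 rose while H2-Q6 and H2-Q7, whose windows differ from that of H2-K1 at few bases, fell, and H2-Q4 did not pass.

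Of the receptor chains, Ifnar2 rose and Ifnar1 did not pass. Ifnar2 (chr16:91372783-91405589) went from 64.8, 60.2 and 64.2 CPM to 109, 105 and 122 CPM, 1.78-fold (log2 0.83 ± 0.08, adjusted p = 7.3e-07). Ifnar1 (chr16:91485032-91510523) was at 62.2 ± 1.49 CPM with NT siRNA and 67.4 ± 6.36 CPM with Pdx1 siRNA (log2 0.12 ± 0.08, adjusted p = 0.239), with overlapping libraries. Whether the 2 chains differ in their change was not tested. Among the sensors, Ddx58 (chr4:40203777-40239825), the RIG-I helicase that detects viral RNA ends, rose 2.095-fold from 3.58, 3.08 and 2.53 CPM to 6.198, 6.51 and 6.43 CPM (log2 1.07 ± 0.12, adjusted p = 3.5e-06). Ifih1, which encodes MDA5, a sensor of long double-stranded RNA, was higher by log2 0.66 ± 0.23 (adjusted p = 0.0259), and Dhx58, their regulator, did not pass (0.21 ± 0.18, adjusted p = 0.344).

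Stat2 and Irf9, which act together in the type I interferon signal, did not pass the test in total RNA. Stat2 (chr10:128270498-128292853) held 14.4, 14.9 and 15.99 CPM with NT siRNA and 13.7, 13.3 and 14.2 CPM with Pdx1 siRNA (log2 -0.14 ± 0.07, adjusted p = 0.099). Irf9 (chr14:55603985-55610030) was at 8.28, 7.46 and 8.23 CPM and 8.59, 8.43 and 8.25 CPM (log2 0.08 ± 0.08, adjusted p = 0.467). The libraries of Irf9 overlapped between the groups, and those of Stat2 were just apart, with Pdx1 siRNA lower. Irf7 (chr7:141263183-141266499), a factor that amplifies the interferon response, did rise, from 3.402, 3.31 and 3.06 CPM to 5.09, 5.195 and 5.24 CPM (log2 0.67 ± 0.10, adjusted p = 7.4e-05). It was higher in every Pdx1 siRNA library than in any NT library. Irf1, a direct activator of class I genes, Irf2 and Irf3 did not pass, with log2 changes of 0.15, -0.10 and -0.13.

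Effectors did not move as a block. Usp18 (chr6:121245906-121270917), the protease that removes ISG15 and dampens receptor signalling, rose from 18.1, 15.9 and 16.3 CPM to 26.7, 25.8 and 25.98 CPM (log2 0.64 ± 0.07, adjusted p = 1.2e-06). Bst2 (chr8:71534255-71537472), tetherin, which holds budding virions at the membrane, went from 2.67, 1.898 and 2.12 CPM to 3.56, 3.07 and 3.23 CPM (log2 0.56 ± 0.14, adjusted p = 0.00417). Further rises were those of Gbp7 at 0.74, Oasl1 at 0.52, Oas2 at 0.49 and Ifitm2 at 0.35 on the log2 scale. The Oas2 call was lost without NT total replicate 1 (adjusted p = 0.0546) and without Pdx1 total replicate 1 (0.0983). Of the Ifitm2 transcript 66.1% matched other annotated transcripts, and 40.9% shares exons with the gene model Gm45717. Ifit2 (chr19:34550550-34576534), which binds RNA in infected cells and can block translation, fell 2.16-fold, from 5.104, 4.96 and 5.32 CPM to 2.33, 2.401 and 2.37 CPM (log2 -1.11 ± 0.10, adjusted p = 2.7e-07). Rsad2 (chr12:26442743-26456452), viperin, an antiviral enzyme that makes a chain-terminating nucleotide, fell from 14.5, 14.8 and 13.7 CPM to 9.14, 8.84 and 10.7 CPM (log2 -0.58 ± 0.11, adjusted p = 0.000291). Groups were apart for all 4 of the genes given by library here. Ifi30 was lower by a smaller step, at 159 ± 5.09 CPM against 128 ± 16.6 CPM (log2 -0.31 ± 0.11, adjusted p = 0.0231). The 8 others, Ifit1, Ifit1bl1, Oas1a, Oas1b, Oas1c, Isg20, Ifi27 and Ifi35, did not pass and ranged from -0.19 for Oas1c to 0.41 for Oas1a.

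Of the 6 genes matched by name only, H2-DMa (chr17:34119693-34139101) rose, from 2.79, 2.07 and 2.02 CPM to 4.08, 3.58 and 3.59 CPM (log2 0.72 ± 0.13, adjusted p = 0.000356), with no overlap. The other 5 did not pass, at log2 changes of -0.14 to -0.03.

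Position was examined because many members lie together. The 24 members placed on chromosome 17, which holds the mouse MHC, had 16 higher and 4 lower in total RNA and a median log2 change of 0.70. The 34 on other chromosomes had 12 higher and 3 lower and a median of 0.10. Between Tapbp and H2-M3 (chr17:33919478-37274485) lay 83 measured genes that are no members, of which 14 were higher and 31 lower, with a median of -0.08. Of all genes 23.8% were higher and 29.2% lower. The difference between these sets was not tested.

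Genes of the same pathway that the symbol rule does not reach gave a mixed picture. Of 12 measured genes of interferon receptor and JAK signalling 3 were higher and 2 lower in total RNA, near the 23.8% and 29.2% of all genes. Ifngr2, a chain of the interferon-gamma receptor, was higher by log2 0.43 ± 0.10 (adjusted p = 0.00265), Il10rb, which serves the interferon-lambda receptor, by 0.34 ± 0.10, and the kinase Jak1 was lower at -0.24 ± 0.09. Of 17 adaptors and kinases of nucleic acid sensing 5 were higher and 3 lower. Tlr3, the endosomal receptor of double-stranded RNA, was higher by 1.32 ± 0.17, whereas Cgas, the sensor of cytosolic DNA, at -1.14 ± 0.13 and Samhd1, which degrades nucleotides, at -0.68 ± 0.07 were lower. Of 30 other interferon-stimulated genes 10 were higher and 3 lower. No list was tested against the other genes. By the naming rule these include a rise of Lgals3bp, a secreted glycoprotein, from 813 ± 55.4 to 2563 ± 415 CPM (log2 1.66 ± 0.12, adjusted p = 2.9e-08) and a fall of Slfn9, a schlafen gene, from 26.2 ± 0.2403 to 7.47 ± 0.426 CPM (log2 -1.81 ± 0.07, adjusted p = 4.4e-11). Shisa5 was higher by 0.90 ± 0.09.

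Of 13 regulators and relatives of class I assembly 7 were higher and 3 lower in total RNA, where 23.8% of all genes were higher and 29.2% lower. Hfe, a class I-like protein that controls iron uptake, was higher by 1.21 ± 0.08, and Mr1, which presents vitamin B metabolites, by 1.23 ± 0.10. Ulbp1, a stress ligand of the NKG2D receptor, fell from 10.39 ± 1.297 to 2.698 ± 0.485 CPM (log2 -1.94 ± 0.15, adjusted p = 3.6e-08). A few genes were singled out after their values were seen. Tapbpl, a peptide editor related to tapasin, was higher by 0.87 ± 0.09, while Nlrc5, the transactivator of class I genes, was at 1.78 ± 0.043 CPM with NT siRNA and 1.74 ± 0.359 CPM with Pdx1 siRNA (-0.04 ± 0.17, adjusted p = 0.879). Of the immunoproteasome subunits, Psmb9 was lower in total RNA (-0.55 ± 0.12, adjusted p = 0.00134) and Psmb8 and Psmb10 did not pass (0.14 and 0.19).

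The second comparison asks the same of ribosome-bound RNA. Both classical heavy chains and all 4 assembly genes were higher there too, and of the 16 non-classical chains 5 were higher and 5 lower. The median log2 change of the 22 heavy chains and assembly genes was 0.42 in IP RNA, against 0.79 in total RNA, and that of the non-classical chains alone was -0.15 against 0.62. Gene by gene the difference between the fractions was smaller, with medians of -0.04 for the 22 genes and -0.07 for the non-classical chains. In the test of that difference, given below, 0 of them passed. In all, 23 members were higher and 9 lower in IP RNA (8 lower without H2-Q9), where 29.2% of all genes were higher and 30.4% lower (59.7% in either direction). Without overlap between the groups stood 26 members on the higher side and 8 on the lower, against 32.3% and 32.6% of all genes. The median log2 change of the members was 0.13, against -0.01 over all genes. Of the 58 members, 20 were higher in both fractions, 7 were lower in both, 18 passed in neither and 0 passed in opposite directions. Of all genes 20.4% were higher in both, 22.8% lower in both, 30.7% passed in neither and 0.111% passed in opposite directions. IP and total RNA are separate libraries, so the comparisons share no control library. They do share 1 fit, and the labels do not say whether both fractions came from the same cultures. The comparisons may therefore not be independent.

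H2-K1 held 1976, 2071 and 1920.0 CPM in the NT IP libraries and 3404, 3071 and 4216 CPM in the Pdx1 siRNA IP libraries (log2 0.84 ± 0.13, adjusted p = 5.1e-05). The values of H2-D1 were 2127, 2193 and 2226 CPM and 4013, 3637 and 4692 CPM (log2 0.92 ± 0.11, adjusted p = 7.1e-06). B2m rose 1.99-fold, from 572, 525 and 585 CPM to 1035, 1044 and 1268 CPM (log2 0.99 ± 0.11, adjusted p = 2.2e-06). Replicate 3 of Pdx1 siRNA IP was the highest library for all 3 genes, and every Pdx1 siRNA library was above every NT library. Tap1 was at 16.6, 18.1 and 15.8 CPM with NT siRNA and at 38.8, 34.9 and 49.4 CPM with Pdx1 siRNA (log2 1.29 ± 0.14, adjusted p = 1.1e-06). Tapbp went from 443, 457 and 498 CPM to 735, 691 and 891 CPM (log2 0.73 ± 0.12, adjusted p = 7.1e-05). Tap2 rose from 32.7, 36.8 and 36.5 CPM to 47.5, 43.9 and 58.05 CPM (log2 0.50 ± 0.13, adjusted p = 0.00335), and with the split of the IP libraries as a term the adjusted p was 0.0559 at nearly the same size, 0.45. None of the 3 genes overlapped between the groups.

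Of the non-classical chains, H2-T23 and H2-M10.1 again had the steepest rises. H2-T23 was at 24.2, 28.1 and 29.6 CPM with NT siRNA and 75.6, 77.1 and 104 CPM with Pdx1 siRNA (log2 1.65 ± 0.15, adjusted p = 2.6e-07). H2-M10.1 went from 176, 176 and 168 CPM to 500.3, 467 and 577 CPM (log2 1.57 ± 0.09, adjusted p = 9.2e-10). H2-Q2 rose from 16.2, 16.2 and 15.9 CPM to 32.3, 33.6 and 39.8 CPM (log2 1.13 ± 0.09, adjusted p = 3.4e-08). All 3 were clear of overlap. H2-M3 rose from 3.44, 3.78 and 3.93 CPM to 7.38, 6.12 and 8.68 CPM (log2 0.99 ± 0.14, adjusted p = 2.1e-05). H2-T22 rose from 41.1, 35.5 and 46.2 CPM to 67.5, 71.4 and 79.2 CPM (log2 0.83 ± 0.11, adjusted p = 1.3e-05). These 2 also had separate groups. The Qa-2 block was lower again. H2-Q6 fell from 21.98, 24.03 and 20.5 CPM to 12.2, 11.02 and 13.7 CPM (log2 -0.85 ± 0.14, adjusted p = 7.6e-05). H2-Q8 fell from 10.99, 9.4 and 11.5 CPM to 5.16, 5.18 and 6.82 CPM (log2 -0.89 ± 0.12, adjusted p = 1.3e-05). H2-Q7 and H2-Q9 fell from 96.9, 94.1 and 128 CPM to 77.99, 69.6 and 89.5 CPM (log2 -0.43 ± 0.13, adjusted p = 0.00796). Every Pdx1 siRNA library of this block was below the NT range, and NT replicate 3 was the highest library of H2-Q7. H2-Q4 was lower in IP RNA at -0.30 ± 0.12 with overlapping groups (adjusted p = 0.0466; with the split as a term -0.27 ± 0.17, adjusted p = 0.211).

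The remaining 8 members that were higher in total RNA did not pass in IP RNA. H2-M10.3 was at 1.06, 0.922 and 0.0561 CPM in NT IP libraries and 0.336, 0.0554 and 0.377 CPM in Pdx1 siRNA IP libraries (log2 -1.47 ± 0.67, adjusted p = 0.0702), the overlap coming from NT replicate 3. H2-Q1 was at 1.06, 1.46 and 0.589 CPM and 1.05, 1.19 and 1.57 CPM (log2 0.32 ± 0.26, adjusted p = 0.3), and it passed as higher with the split as a term (1.12, adjusted p = 0.0123). H2-M10.4, H2-M10.5, H2-Q10, Gbp7, Ifih1 and Oasl1 make up the rest of these 8, at log2 changes of 0.34, -0.35, -0.38, 0.34, 0.57 and -0.16. The sign for H2-Q10 rests on NT IP replicates 1 and 2, at 25.96 and 26.98 CPM. NT IP replicate 3, at 14.6 CPM, lay below all Pdx1 siRNA IP libraries, at 18.1, 15.5 and 18.2 CPM.

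Outside class I, Ifnar2 rose in IP RNA from 113, 110.2 and 119.9 CPM to 224, 209.5 and 246 CPM (log2 0.99 ± 0.08, adjusted p = 8.5e-08), and Ifnar1 did not pass (0.08). Ddx58 rose from 1.78, 2.05 and 2.24 CPM to 3.94, 3.404 and 3.37 CPM (log2 0.81 ± 0.14, adjusted p = 0.000193). Both had separate groups, with Ifnar2 the tighter. Irf7 went from 3.34, 3.302 and 3.98 CPM to 5.41, 6.37 and 6.42 CPM (log2 0.78 ± 0.11, adjusted p = 1.6e-05). This factor rose without overlap, while Irf9 at 0.08 ± 0.09 (adjusted p = 0.489) did not pass. Irf9 was at 5.54, 4.55 and 5.24 CPM in NT IP and 5.29, 5.397 and 5.52 CPM in Pdx1 siRNA IP RNA. Stat2 went from 7.87, 7.53 and 7.66 CPM to 7.05, 6.37 and 6.56 CPM and was lower at -0.21 ± 0.08 (adjusted p = 0.0284), a call lost at the same size of -0.21 with DESeq2 (adjusted p = 0.0785) and with the split as a term (0.175), and at -0.18 to -0.22 without NT IP replicate 1 or 3 or Pdx1 siRNA IP replicate 2 or 3 (0.062 to 0.0948).

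Effectors again had 6 higher and 3 lower of 17 in IP RNA, and 8 that did not pass, where 29.2% of all genes were higher and 30.4% lower. Usp18 rose from 17.6, 16.5 and 17.6 CPM to 25.2, 24.8 and 24.7 CPM (log2 0.53 ± 0.07, adjusted p = 8.7e-06). Bst2 rose from 4.87, 5.09 and 6.505 CPM to 9.397, 9.19 and 10.01 CPM (log2 0.80 ± 0.12, adjusted p = 5.5e-05). Ifit2 fell 2.83-fold, from 4.87, 5.26 and 4.71 CPM to 1.97, 1.66 and 1.66 CPM (log2 -1.50 ± 0.11, adjusted p = 2.2e-08). None of these overlapped, and the Ifit2 groups were the farthest apart. Rsad2 fell from 10.09, 10.7 and 10.54 CPM to 4.91, 5.37 and 7.17 CPM (log2 -0.83 ± 0.12, adjusted p = 2.2e-05). Ifi30 fell too, at -0.55, and Ifitm2, Ifi35 and Isg20, an exonuclease, rose by 0.27, 0.39 and 0.35. Oas2 was at 0.636, 0.595 and 0.925 CPM and 1.09, 1.14 and 0.987 CPM (log2 0.57 ± 0.21, adjusted p = 0.0317), a call lost with DESeq2 (0.0565) and without replicate 1 or 2 of either IP group (0.0691 to 0.116). With the split as a term, Isg20 and Oas2 had adjusted p-values of 0.212 and 0.578. Among the genes matched by name only, H2-DMa rose from 4.08, 3.33 and 3.93 CPM to 6.84, 6.23 and 6.73 CPM (log2 0.80 ± 0.12, adjusted p = 5.9e-05). H2-Ke6 was at 33.2, 31.4 and 33.9 CPM and 39.8, 36.7 and 39.8 CPM, higher by 0.24 ± 0.07 (adjusted p = 0.00731, or 0.141 with the split as a term); 99.9% of its transcript shares exons with the gene model Gm20427.

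**Figure D3:**
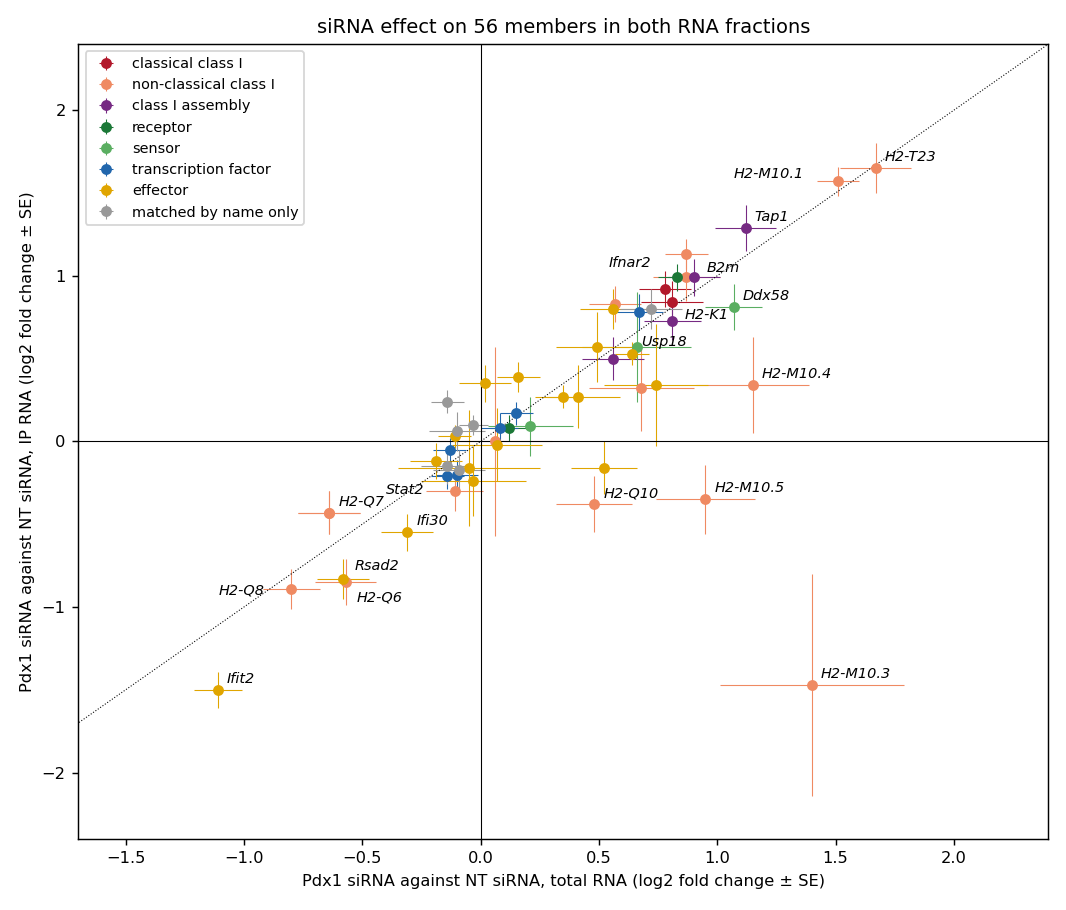
Log2 fold change of 56 members with Pdx1 siRNA against NT siRNA, in total RNA (x axis) and IP RNA (y axis), with bars of 1 SE, colours for the role and a dotted line where both are equal. Most members lie along the line, from Ifit2 at -1.11 and -1.50 to H2-T23 at 1.67 and 1.65, and H2-M10.3, H2-M10.5 and H2-Q10 lie below it. All are drawn without the split of the IP libraries as a term. At H2-M10.3 and H2-Q10, NT IP replicate 3 lay with the Pdx1 siRNA IP libraries.

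The pathway genes named by the rule had the same signs in IP RNA as in total RNA. Lgals3bp was at 512 ± 37.5 and 1454 ± 159.8 CPM (log2 1.51 ± 0.12), Slfn9 was lower at -2.32 ± 0.09 and Ulbp1 at -2.14 ± 0.23, and Hfe was higher by 1.40 ± 0.08. By list, receptor and JAK genes had 5 higher and 4 lower of 12, sensing genes 6 and 3 of 17, other interferon-stimulated genes 12 and 7 of 30, and class I regulators 6 and 3 of 13. Of the immunoproteasome subunits, chosen after their values were seen, Psmb8 and Psmb10 were higher in IP RNA (0.33 and 0.53) and Psmb9 did not pass (-0.12). Nlrc5 did not pass either (-0.24). Of the 83 neighbours in the MHC interval 27 were higher and 23 lower, with a median of 0.01. Of all genes 29.2% were higher and 30.4% lower in IP RNA, and no list was tested against them.

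The third comparison asks whether the siRNA effect differed between IP and total RNA, tested as an interaction. By edgeR 0 of 58 members passed, where 0.229% of all genes did. At an unadjusted p under 0.05 there were 8 members, or 13.8%, below the 17% of all genes. DESeq2 called 3, H2-Ke6, H2-M10.5 and H2-Q10, or 5.17% of the members against 2.59% of all genes. The smallest adjusted p in the edgeR test was that of H2-M10.5, 0.0601, with a difference in log2 change of -1.31 ± 0.30 (IP minus total). H2-M10.5 was at 0.533, 0.506 and 0.668 CPM in NT total and 1.32, 0.9697 and 1.08 CPM in Pdx1 siRNA total RNA, and at 1.06, 0.952 and 1.09 CPM in NT IP and 1.01, 0.637 and 0.842 CPM in Pdx1 siRNA IP RNA. H2-Q10, a secreted class I chain, was at 18.9, 17.2 and 18.3 CPM and 22.98, 24.96 and 28 CPM in total RNA and at 25.96, 26.98 and 14.6 CPM and 18.1, 15.5 and 18.2 CPM in IP RNA, a difference of -0.87 ± 0.23 (adjusted p = 0.0848). In both genes total RNA rose with no overlap between groups while the IP groups overlapped, and for H2-Q10 the overlap came from NT IP replicate 3. H2-Q10 may also share reads with H2-D1, which 20.6% of its transcript matched. The other 6 at an unadjusted p under 0.05 were H2-M10.3 at -2.87, Oasl1 at -0.68, Ifit2 at -0.39, H2-Q2 at 0.26, Isg20 at 0.33 and H2-Ke6 at 0.38. Without NT IP replicate 3 there were 4 calls and without Pdx1 total replicate 1 there were 3, with H2-Ke6, H2-M10.5 and H2-Q10 in both and H2-M10.3 in the former. The share of all genes called in these fits is not given here, so these counts have no background. Differences of the main class I genes were small, with 0.03 to 0.13 for the classical chains and -0.08 to 0.17 for the assembly genes. A p that misses the threshold does not show that the effects were equal.

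The fourth comparison sets IP against total RNA, which describes how much of each mRNA was recovered with ribosomes relative to its share of total RNA. With NT siRNA several heavy chains and effectors were higher in IP RNA, and most sensors and transcription factors were lower: of 11 sensors and factors 1 was higher and 7 were lower, with a median log2 difference of -0.50. Of the 22 heavy chains and assembly genes 11 were higher and 1 was lower. In all 24 members were higher and 11 lower (23 higher without H2-Q9), against 33.8% and 35.9% of all genes (69.7% in either direction). With Pdx1 siRNA 21 were higher and 18 lower (20 higher without H2-Q9), against 36.3% and 38.7% of all genes (75.1% in either direction). IP and total libraries did not overlap for 26 members higher in IP and 14 lower with NT siRNA (37.3% and 40.2% of all genes), and for 21 and 18 with Pdx1 siRNA (35.7% and 37.9%). With both siRNAs 18 members were higher and 11 lower, against 30.5% and 32.8% of all genes, and 0 passed in opposite directions, against 0.103%. The siRNA and fraction contrasts reuse the same libraries, so they are not independent of each other.

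The libraries given above show the members that stood out. Bst2 was 2.48-fold higher in IP than in total RNA with NT siRNA (log2 1.31 ± 0.14, adjusted p = 8.5e-07) and 2.91-fold with Pdx1 siRNA (log2 1.54 ± 0.13, adjusted p = 5.2e-08). B2m was higher by 0.97 ± 0.11 and 1.07 ± 0.11, Ifnar2 by 0.86 ± 0.08 and 1.01 ± 0.08, and H2-T22 by 0.85 ± 0.11 and 1.11 ± 0.11. H2-D1 was higher by 0.73 ± 0.11 and 0.86 ± 0.11, and H2-K1 by less, 0.39 ± 0.13 and 0.42 ± 0.13. None of these genes had overlapping IP and total libraries with either siRNA. H2-Ke6 was higher by 0.68 ± 0.07 and 1.07 ± 0.07, and its total RNA libraries held 21.1, 19.99 and 20.3 CPM with NT and 19.8, 17.9 and 17.7 CPM with Pdx1 siRNA. Tap1 was at a like level in both fractions, with differences of -0.14 ± 0.14 and 0.03 ± 0.13.

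At the other end, Stat2 and Irf9 were lower in IP RNA. Stat2 differed by -0.98 ± 0.07 with NT siRNA (adjusted p = 2.9e-08) and -1.05 ± 0.07 with Pdx1 siRNA (adjusted p = 1.1e-08). Irf9 differed by -0.64 ± 0.09 and -0.64 ± 0.09. In both genes all IP libraries lay below all total libraries of the same siRNA. Ddx58 differed by -0.59 ± 0.14 and -0.85 ± 0.13. Oas2, a synthetase that activates RNase L, held 1.17, 1.33 and 1.24 CPM in NT total and 2.12, 1.59 and 1.6 CPM in Pdx1 siRNA total RNA and differed by -0.79 ± 0.20 and -0.71 ± 0.18. Gbp7 and H2-T24, both under 1.5 CPM, were lower by larger steps, at -1.32 and -1.72 and at -2.72 and -2.78. With the split of the IP libraries as a term, the H2-T24 difference with Pdx1 siRNA was -0.94 ± 1.32 (adjusted p = 0.572). H2-M10.3 was lower with Pdx1 siRNA at -3.26 ± 0.54 (adjusted p = 5.2e-05) and not with NT siRNA (-0.39 ± 0.48), and with the same term the former turned to 0.81 ± 1.15 (adjusted p = 0.571).

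**Figure D4:**
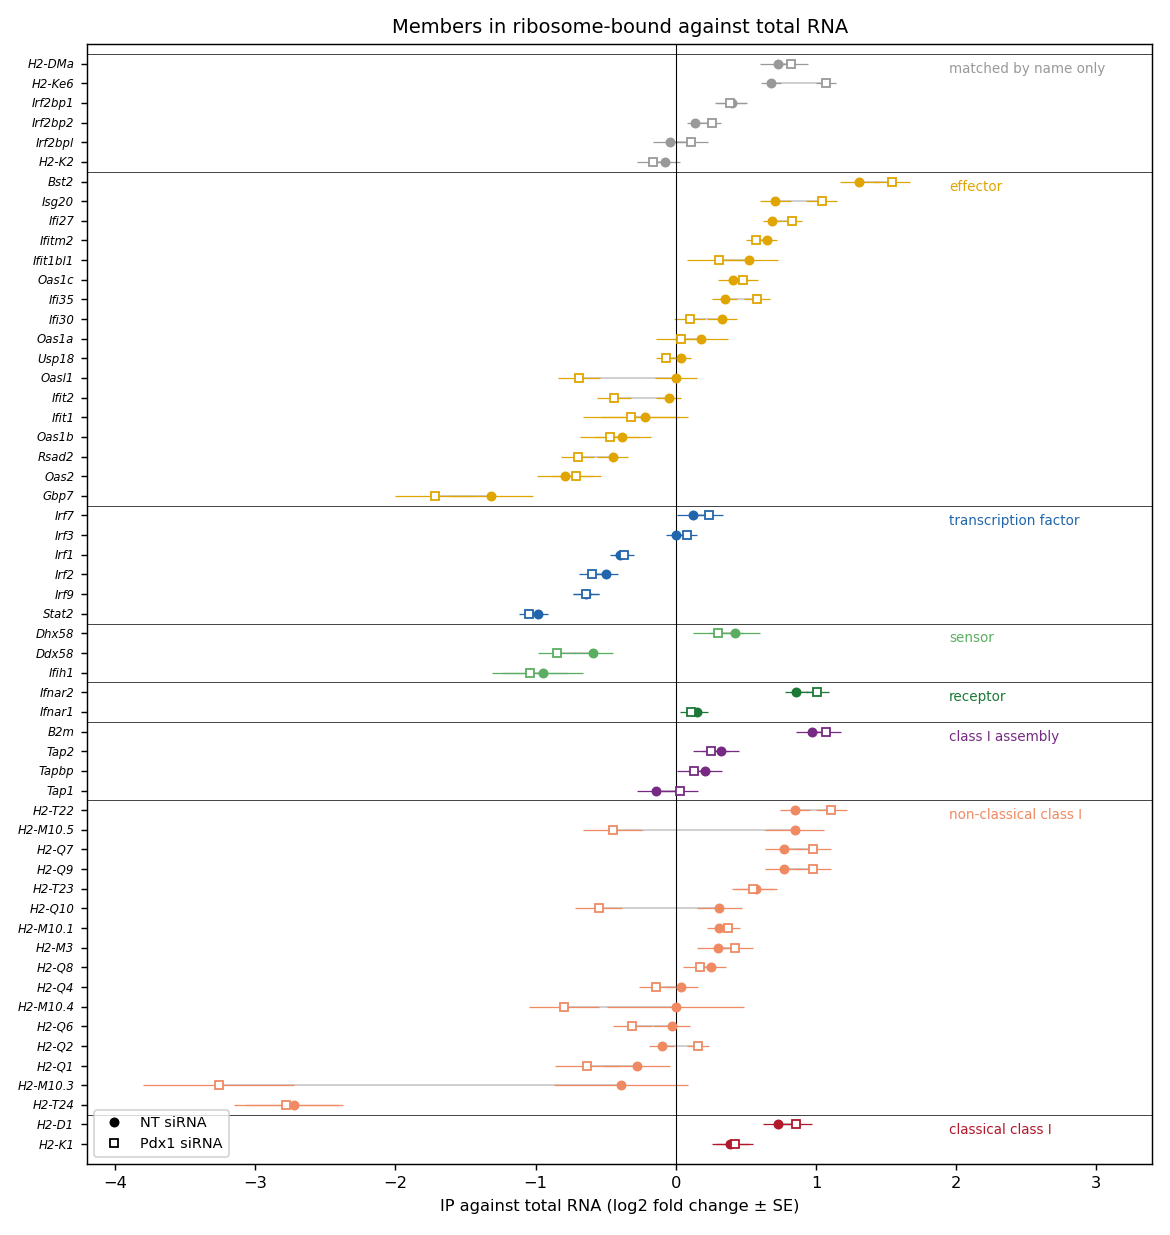
Log2 fold change of IP against total RNA for 56 members, by role, with filled circles for NT siRNA, open squares for Pdx1 siRNA and bars of 1 SE. Bst2 lies farthest right, at 1.31 and 1.54, most transcription factors lie left of 0, and H2-M10.3 and H2-T24 reach -3.26 and -2.78 with Pdx1 siRNA, both drawn without the split of the IP libraries as a term (0.81 and -0.94 with it).

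Transcript length varied with this comparison. Across 57 members the Spearman correlation of transcript length with the log2 difference of IP against total RNA was -0.63 with NT siRNA and -0.54 with Pdx1 siRNA, and across 12606 genes it was -0.63 and -0.60. These are descriptions across genes that share the same libraries. B2m has a transcript of 860 bases and Bst2 one of 792, while that of Ifih1 measures 5470. The part of length in the difference between short and long members was not tested.

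With the split of the IP libraries as a term, 24 members in place of 39 differed between IP and total RNA with Pdx1 siRNA, and 27 in place of 32 changed with siRNA in IP RNA. How many of all genes lost their call with this term is not given here. All Pdx1 siRNA IP libraries are on one side of the split and all total RNA libraries on the other, so with this term the siRNA effect in IP RNA rests on NT IP replicate 3, and the other comparison on how that library differs from NT IP replicates 1 and 2. H2-T23, H2-K1 and H2-M3 then no longer passed for IP against total RNA with Pdx1 siRNA, at 0.37 ± 0.26, 0.49 ± 0.24 and 0.30 ± 0.26 (adjusted p = 0.254, 0.0964 and 0.345) in place of 0.55, 0.42 and 0.42. For H2-K1 the difference was no smaller and its SE was wider. The siRNA effects of all 3 genes in IP RNA kept their calls.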

How the data were processed

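RNA was measured in 12 libraries. The authors deposited raw counts, 1 table per library with a whole number for each RefSeq transcript. The submitters' processing notes name TopHat2, featureCounts and mm10 but no versions. Whether strand was used and how reads with several matches were treated is not given in the sources used here.

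Of 17133 transcripts 16838 were matched to a symbol through the RefSeq gene table of GRCm38.p6; the other 295 held 0.577% to 0.834% of a library's counts and were left out. The transcript with the highest total stood for each gene, since reads shared by transcripts may be counted in each. This concerned 12 members. All 12643 genes entered 1 quasi-likelihood fit in edgeR 4.0.16 (R 4.3.3) with a mean per group, TMM scaling and the default expression filter, which removed 0 genes. Benjamini-Hochberg adjustment ran over all of these genes, with a threshold of 0.05, and an SE is the size of the log2 fold change divided by the root of F. Library totals of 29430690 to 45806807 counts left members with 2 to 161660 counts in a library, and the precision of the lowest is limited by counting.

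Values in every library are given for the signalling and class I core genes and for members past the test by at least 1.5-fold at 1 CPM or more in an siRNA contrast. The 4 highest and 4 lowest members of each comparison of IP with total RNA were added, as were up to 3 genes per pathway list. Of the 58 members, 2 are not reported here by name; they stay in every count and median and are left out of the figures. The members, lists and rules were chosen with earlier results of these data known. Near-identical copies were sought with minimap2 2.31 (at least 100 bases at 95% identity). Alternatives were RLE and upper-quartile scaling, DESeq2 1.42.0, other filters, a replicate block, only the libraries compared, sums over transcripts, the split of the IP libraries as a term, and each library left out. IP libraries from a single side of the split were added after seeing the data. Tables and figures were made with Python 3.11.15.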

Additional observations from a re-analysis of the deposited data

How the results depend on the processing

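Leaving out each library in turn moved the number of members called from 33 to 36 for the siRNA in total RNA, from 29 to 32 for the siRNA in IP RNA, from 32 to 37 for IP against total RNA with NT siRNA, from 38 to 39 with Pdx1 siRNA and from 0 to 4 for the interaction. The 4 interaction calls came without NT IP replicate 3, and 3 came without Pdx1 total replicate 1. DESeq2 called 3 members for the interaction. For the other alternatives the share of all genes called is not given here, so their counts of members have no background. With the split of the IP libraries as a term, 24 members differed between IP and total RNA with Pdx1 siRNA, and H2-M10.3 (0.81), H2-Q1 (0.45) and Irf7 (-0.02) changed sign there; the cause was not tested. Of 100 results for named genes 17 lost their call under at least 1 alternative, in 63 of 1528 recomputed values, these 3 changes of sign included. Scaling moved the median of all genes by under 0.1 in every comparison.

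The replicate numbers were not shown to pair libraries: same-numbered libraries correlated at -0.105 to 0.514 in their deviations from the group means. With the number as a replicate block, 2 members were called for the interaction, H2-Ke6 and H2-M10.5, again without a share of all genes to set beside them.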
